A study of Mus musculus with 6 samples.

Results

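The genes described here are Dlg4, Dlg2, Dlgap1, Magi2 and Grip1, which encode scaffold proteins of the postsynaptic density. Their members are the RNA fragments crosslinked to FLAG-tagged PTBP1 or to PTBP2 that were listed inside each locus. An interval was counted once for each library, strand, start and end, and was assigned to a locus when its midpoint lay on the plus strand of the mm9 window of that gene. The windows were Dlg4 on chromosome 11 from 69.83 to 69.86 Mb, Dlg2 on chromosome 7 from 97.63 to 99.55 Mb, Dlgap1 on chromosome 17 from 70.33 to 71.16 Mb, Magi2 on chromosome 5 from 18.74 to 20.2 Mb and Grip1 on chromosome 10 from 118.9 to 119.52 Mb. They held 16270 of the 962410 distinct intervals of the series, or 1.69%.

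All 6 libraries came from neocortex of BL6/129Sv mice on postnatal day 1. The FLAG antibody was used on Rosa-PTBP1 cortex with PTBP2 loxp/loxp alleles and Emx1-Cre (1 library, called FLAG loxp/loxp here), on Rosa-PTBP1; Emx1-cre cortex (1 library, FLAG Rosa-PTBP1) and on WT cortex (2 libraries, FLAG WT replicates 1 and 2). The PTBP2 antibody was used on Rosa-PTBP1; Emx1-cre cortex (1 library, PTBP2 Rosa-PTBP1) and on WT cortex (1 library, PTBP2 WT). Rosa-PTBP1 expresses the FLAG-PTBP1 protein, and WT cortex has none, so the FLAG WT libraries measure the background of the FLAG antibody and procedure. No library is a control for the PTBP2 antibody. Where PTBP2 is set against FLAG WT, the background is therefore that of another antibody. Emx1-cre acts in the dorsal forebrain lineage that gives rise to cortical excitatory neurons, so cells of other lineages in the same cortex keep their PTBP2 and lack the transgene. Comparisons of Rosa-PTBP1 with WT cortex differ by the transgene and the recombinase together. Apart from the FLAG WT pair there was 1 library a group, so no difference between conditions has a replicate check, and every interval given with a share or a fold is an exact 95% interval of counting error only. Because whole cortex was used, more crosslinking, more of the RNA and more cells that express it cannot be told apart in any of these values.

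PTBP1 and its neuronal relative PTBP2 recognise pyrimidine-rich stretches in nuclear RNA, where they often repress the splicing of exons used in neurons. PTBP1 is found in progenitors and non-neuronal cells and is lost as neurons form, while PTBP2 is present in young neurons and declines as they mature. DLG4 (PSD-95) and DLG2 (PSD-93) are membrane-associated guanylate kinases that anchor glutamate receptors at the synapse. DLGAP1 (GKAP) binds the guanylate kinase domain of PSD-95 and links it to the SHANK proteins. MAGI2 (S-SCAM) is an inverted membrane-associated guanylate kinase, and GRIP1 is a PDZ protein that binds AMPA receptor subunits.

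Dlg4 is a textbook target: PTB proteins repress 1 of its exons, and skipping that exon shifts the reading frame and exposes the transcript to nonsense-mediated decay. The exon is shown because the sparse signal at Dlg4 below is read against this known regulation. It is 110 bases long, which leaves a remainder of 2 after division by 3, and is exon 20 of the 22 exons of transcript Dlg4-204 in the GENCODE annotation of GRCm38, at chr11:70043658-70043767 on the plus strand. All 7 annotated protein-coding transcripts that span it include it, and the 1 spanning transcript without it, Dlg4-205, is annotated as a target of nonsense-mediated decay. In the first line capitals mark the exon between 30 bases of each neighbouring exon; in the second they mark the stop codon reached in Dlg4-205, 9 bases after the new junction and 80 bases before its last junction.
Dlg4 exon included: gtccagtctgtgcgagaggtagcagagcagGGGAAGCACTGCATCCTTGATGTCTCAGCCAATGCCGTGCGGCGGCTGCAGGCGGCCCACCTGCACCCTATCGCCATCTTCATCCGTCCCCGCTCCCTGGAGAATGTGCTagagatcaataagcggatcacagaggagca
Dlg4 exon skipped: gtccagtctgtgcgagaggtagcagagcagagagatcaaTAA
These sequences come from GRCm38 transcripts. The intervals are in mm9 coordinates, which were not converted, so no interval below is placed relative to this exon.

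The libraries listed 265953 distinct intervals in FLAG loxp/loxp, 351602 in FLAG Rosa-PTBP1, 74416 in PTBP2 Rosa-PTBP1, 155447 in PTBP2 WT, and 88327 and 26665 in FLAG WT replicates 1 and 2. Some chromosomes were nearly empty in single libraries. FLAG Rosa-PTBP1 held 0.151% of its intervals on chromosome 10, where the median of the other libraries was 6.36%. PTBP2 Rosa-PTBP1 held 0.536% on chromosome 5 and 0.946% on chromosome 7, against medians of 5.87% and 4.04%. Grip1 in FLAG Rosa-PTBP1, and Dlg2 and Magi2 in PTBP2 Rosa-PTBP1, were therefore listed at 0 together with their surroundings. Within 5 Mb of Grip1 the plus strand held 0 intervals in FLAG Rosa-PTBP1 and 1955 in FLAG loxp/loxp. The corresponding numbers around Dlg2 were 5 in PTBP2 Rosa-PTBP1 and 510 in PTBP2 WT, and around Magi2 they were 5 and 173. No value of a single gene is compared in these 3 combinations, and sums or counts over the genes that contain them are named as such. Sequencing runs were inferred here from a field of the read names. A distinct interval was credited to the run of its first listed line, so repeats from another run are not seen in values by run. By that field both FLAG-PTBP1 libraries and FLAG WT replicate 2 belonged to run WA047. Both PTBP2 libraries and FLAG WT replicate 1 belonged to runs XA041 and XB028. The protein and the run therefore cannot be told apart wherever FLAG-PTBP1 is set against PTBP2.

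Intervals were abundant at 4 of the genes and few at Dlg4, which has by far the shortest window. Over the 6 libraries Dlg2 held 7239, Magi2 4333, Grip1 2387, Dlgap1 2293 and Dlg4 18. Per kb of window these totals were 3.77, 2.97, 3.85, 2.76 and 0.6, with a Dlg4 window of 30 kb. At Dlg4 FLAG Rosa-PTBP1 and PTBP2 WT each held 0.133 per kb. FLAG WT replicate 1 held 0.233 per kb there, against 0.261 at Dlg2, 0.247 at Dlgap1, 0.153 at Magi2 and 0.360 at Grip1. Per length the order differed between libraries. In FLAG loxp/loxp Grip1 held 2.04 intervals per kb, Dlg2 1.26, Magi2 1.05 and Dlgap1 0.589, and in PTBP2 WT Grip1 held 0.765, Dlg2 0.617, Dlgap1 0.470 and Magi2 0.339. All 16270 lay on the plus strand, the strand these genes are transcribed from; the minus strand of the same windows was listed at 0 in all 6 libraries. This one-sidedness is usual in these lists: of the 100-kb windows with 20 or more intervals genome-wide, 88.9% to 96.1% held intervals of 1 strand only, depending on the library.

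**Figure D1:**
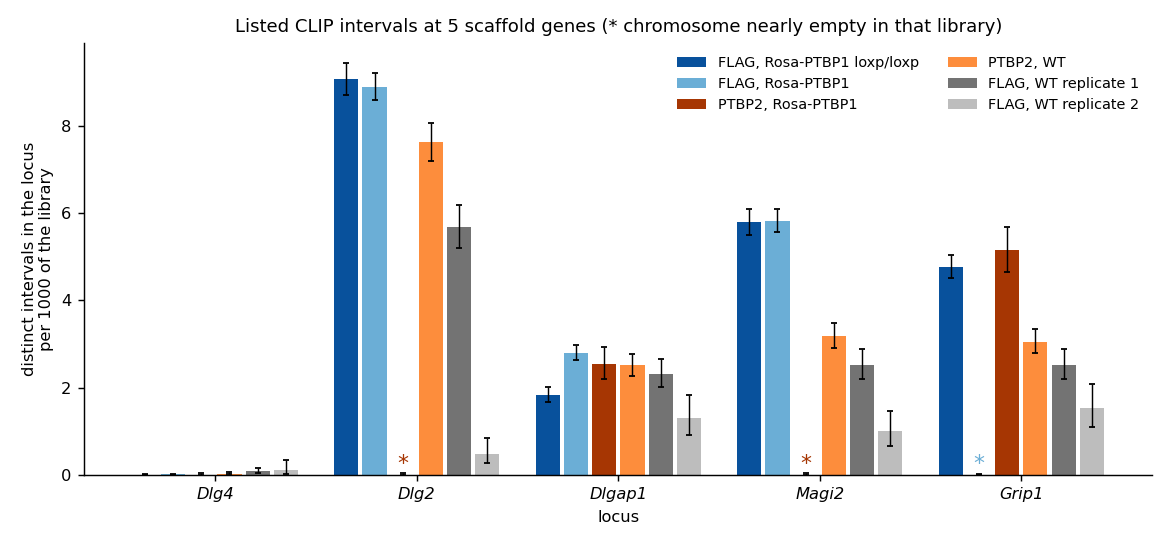
Distinct intervals in each locus per 1000 distinct intervals of the library, for the 6 libraries; error bars are exact 95% intervals of counting error and asterisks mark libraries in which the chromosome was nearly empty. At Dlg2 the FLAG loxp/loxp and FLAG Rosa-PTBP1 bars stand at 9.07 and 8.90, above both FLAG WT bars at 5.67 and 0.488, while the Dlgap1 bars of 5 libraries lie between 1.84 and 2.80.

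At Dlg4, with its window of 30 kb, the PTBP libraries listed few intervals. FLAG Rosa-PTBP1 and PTBP2 WT each held 4 intervals, FLAG loxp/loxp and PTBP2 Rosa-PTBP1 were listed at 0, and FLAG WT replicates 1 and 2 held 7 and 3. Per 1000 intervals this was 0.0114 in FLAG Rosa-PTBP1 and 0.0257 in PTBP2 WT, against 0.0793 and 0.113 in the background libraries. The share was lower in FLAG Rosa-PTBP1 than the mean of the FLAG WT libraries (0.119-fold, 0.0272 to 0.411, or log2 -3.08). It was lower by less when set against the intervals within 5 Mb (log2 -1.24). Wherever this scale is used, it takes the intervals of both strands outside the window of the gene. The share of PTBP2 WT was 0.268-fold (0.0614 to 0.931, or log2 -1.90) of the same mean and log2 -0.50 when set against the intervals within 5 Mb. Against single background libraries its interval included 1, at 0.325-fold (0.0697 to 1.28) of replicate 1 and 0.229-fold (0.0387 to 1.56) of replicate 2. Chromosome 11 was filled there: within 5 Mb of Dlg4 the plus strand held 110 intervals in FLAG loxp/loxp, 185 in FLAG Rosa-PTBP1, 96 in PTBP2 Rosa-PTBP1, 101 in PTBP2 WT, and 174 and 53 in FLAG WT replicates 1 and 2. The upper 95% limits for the libraries at 0 were 0.0139 per 1000 in FLAG loxp/loxp and 0.0496 in PTBP2 Rosa-PTBP1.

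The 18 Dlg4 intervals formed 9 regions, a region being a run of overlapping or touching intervals of all 6 libraries, and none reached 5 intervals in any library. The 2 described next were chosen after their values were seen. The 4 PTBP2 WT intervals overlapped in 61 bases at chr11:69854666-69854726, 24.7 kb into the 30-kb window, where the 5 other libraries held none. All 4 were credited to 1 of the library's 2 sequencing runs. At chr11:69832220-69832267, 3 FLAG Rosa-PTBP1 intervals lay beside 3 of FLAG WT replicate 2, which was sequenced in the same run. Since the lists hold only clusters that passed the submitters' false discovery rate, reads at Dlg4 outside such clusters are not seen here.

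Dlg2 carried the most intervals of the 5 genes in FLAG loxp/loxp, FLAG Rosa-PTBP1, PTBP2 WT and FLAG WT replicate 1. There were 2411 in FLAG loxp/loxp, 3129 in FLAG Rosa-PTBP1, 1185 in PTBP2 WT, and 501 and 13 in FLAG WT replicates 1 and 2, or 9.07, 8.90, 7.62, 5.67 and 0.488 per 1000. Both FLAG-PTBP1 libraries and PTBP2 WT stood above both background libraries, which themselves lay far apart. The FLAG Rosa-PTBP1 share was 1.57-fold (1.43 to 1.73) that of replicate 1 and 18.3-fold (10.7 to 34.3) that of replicate 2. For PTBP2 WT the folds were 1.34 (1.21 to 1.49) and 15.6 (9.11 to 29.5).

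Magi2 held 1540 intervals in FLAG loxp/loxp, 2048 in FLAG Rosa-PTBP1, 495 in PTBP2 WT, and 223 and 27 in FLAG WT replicates 1 and 2. The shares were 5.79, 5.82, 3.18, 2.52 and 1.01 per 1000. FLAG Rosa-PTBP1 stood 2.31-fold (2.01 to 2.66) and 5.75-fold (3.94 to 8.75) above replicates 1 and 2, and PTBP2 WT 1.26-fold (1.07 to 1.48) and 3.14-fold (2.14 to 4.82).

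At Dlgap1 the shares of the PTBP libraries, taken of the whole library, were close to that of 1 background library. There were 489 intervals in FLAG loxp/loxp, 985 in FLAG Rosa-PTBP1, 189 in PTBP2 Rosa-PTBP1, 390 in PTBP2 WT, and 205 and 35 in FLAG WT replicates 1 and 2. Per 1000 these were 1.84, 2.80, 2.54, 2.51, 2.32 and 1.31. FLAG Rosa-PTBP1 was 1.21-fold (1.04 to 1.41) replicate 1 and 2.13-fold (1.52 to 3.08) replicate 2. The PTBP2 WT share did not differ from replicate 1 beyond counting error (1.08-fold, 0.911 to 1.29) and was 1.91-fold (1.35 to 2.78) replicate 2. Set against the intervals within 5 Mb in place of the whole library, the log2 ratio of FLAG Rosa-PTBP1 to the FLAG WT mean was 2.49 in place of 0.62 at Dlgap1 and 3.18 in place of 1.72 at Magi2. That of PTBP2 WT was 1.92 in place of 0.47 at Dlgap1, and 1.36 there when counted in stacked sites. The reference of this last value is only 0 and 2 stacked sites in FLAG WT replicates 1 and 2. Within the runs that PTBP2 WT shares with replicate 1 its Dlgap1 ratio was 0.020 in XA041 and -0.068 in XB028, so the size of this difference depends on the scale and on the background library.

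Grip1 held 1266 intervals in FLAG loxp/loxp, 383 in PTBP2 Rosa-PTBP1, 474 in PTBP2 WT, and 223 and 41 in FLAG WT replicates 1 and 2, or 4.76, 5.15, 3.05, 2.52 and 1.54 per 1000. The PTBP2 WT share was 1.21-fold (1.03 to 1.42) replicate 1 and 1.98-fold (1.44 to 2.80) replicate 2. Set against the intervals within 5 Mb in place of the whole library, PTBP2 WT was lower than the FLAG WT mean at Grip1 (log2 -0.50), so its direction there depends on the scale.

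FLAG WT replicate 1 differed from the PTBP libraries in the form of its signal as well as its amount. Overlapping or touching intervals of 1 library were merged into sites, and a stacked site was one built from 5 or more intervals. At Dlg2, FLAG loxp/loxp had 143 stacked sites of 235, FLAG Rosa-PTBP1 had 196 of 315 and PTBP2 WT had 95 of 184, against 3 of 420 and 1 of 5 in FLAG WT replicates 1 and 2. At Magi2 the numbers were 90 of 183, 132 of 227 and 32 of 96, against 1 of 193 and 1 of 10. Dlgap1 had 45 of 93 in FLAG loxp/loxp, 90 of 144 in FLAG Rosa-PTBP1, 9 of 57 in PTBP2 Rosa-PTBP1, 29 of 66 in PTBP2 WT, and 0 of 161 and 2 of 13 in the FLAG WT libraries. At Grip1 they were 106 of 172 in FLAG loxp/loxp, 14 of 83 in PTBP2 Rosa-PTBP1 and 26 of 62 in PTBP2 WT, against 1 of 173 and 3 of 11. Replicate 2 had few sites, and its stacked share was 27.3% at Grip1 and 15.4% at Dlgap1, where PTBP2 Rosa-PTBP1 had 16.9% and 15.8%, so it did not differ from every PTBP library in this form. Replicate 1 was a scatter of lone intervals, with 75.7% to 86.5% of its sites at the 4 genes made of 1 interval. Over whole libraries 15.1% of the sites in FLAG Rosa-PTBP1 and 85.8% of those in replicate 1 were made of 1 interval, so the contrast is not particular to these genes.

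**Figure D2:**
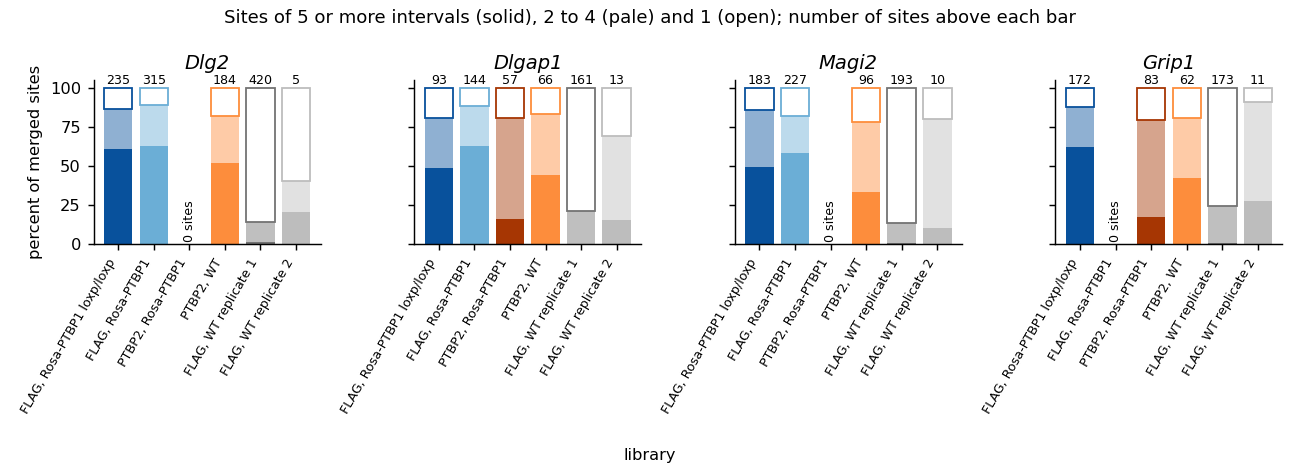
Percent of merged sites at each locus that were built from 5 or more intervals (solid), 2 to 4 (pale) or 1 (open), with the number of sites above each bar and the 6 libraries along the horizontal axis. In FLAG WT replicate 1 at most 0.714% of the sites of any of these genes were stacked, against 49.2% to 62.5% in FLAG Rosa-PTBP1 and FLAG loxp/loxp except for 48.4% at Dlgap1 in FLAG loxp/loxp and for Dlg4, where no library had a stacked site.

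The background replicates did not share their sites. Of the 953 member sites of FLAG WT replicate 1, 1 overlapped one of the 40 sites of replicate 2. Replicate 1 touched 7.99% (6.08 to 10.3) of the FLAG Rosa-PTBP1 sites at these genes, and replicate 2 touched 1.02% (0.410 to 2.09). The 5 loci held 2152 regions, of which 904 were single intervals. Among the 651 with 5 or more intervals in any PTBP library, 75 held any interval of a FLAG WT library. In the other direction, 12 regions reached 5 intervals in a FLAG WT library. The highest was a Grip1 region at chr10:118968750-118968819 with 9 intervals in replicate 2 and none in any other library. Another Grip1 region, chr10:119190741-119190897, held 36 intervals in FLAG loxp/loxp, 28 in PTBP2 Rosa-PTBP1, 27 in PTBP2 WT and 6 in FLAG WT replicate 1. At the Dlg2 region chr7:98319612-98319787 the background reached 6 intervals in replicate 2, against 19 in FLAG loxp/loxp, 15 in FLAG Rosa-PTBP1 and 6 in PTBP2 WT, and as a share it stood above them.

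Regions were called different where the shares of their intervals, with 0.5 added to each count, were past 4-fold, among regions with 20 or more intervals in both groups together. Against the FLAG WT mean, 58 of 61 member regions were higher in FLAG Rosa-PTBP1, where 84.9% of all regions tested were. For PTBP2 WT, 24 of 25 were higher, where 88.0% of all were, and no member was lower in either comparison, where 3.01% and 3.18% of all were. The median log2 ratio was 2.88 over the 61 members and 2.68 over all regions for FLAG Rosa-PTBP1, and 3.96 and 3.80 for PTBP2 WT. With so few stacked sites in the background, a region reached 20 intervals almost only through the PTBP library, so these counts had to be high and nothing is read from them.

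Intervals were concentrated in short stretches of very long genes. At Dlg2 the densest 20-kb bin, 680 to 700 kb from the window's start, held 720 of the 2411 intervals of FLAG loxp/loxp (29.9%), 502 of the 3129 of FLAG Rosa-PTBP1 (16.0%) and 268 of the 1185 of PTBP2 WT (22.6%). In FLAG WT replicate 1 the densest Dlg2 bin, at 640 to 660 kb, held 5.19% of its intervals, while replicate 2 held 6 of its 13 in the bin of the PTBP libraries. Magi2 had its densest bin at 680 to 700 kb in the same libraries, with 36.5% of the FLAG loxp/loxp, 33.5% of the FLAG Rosa-PTBP1 and 28.1% of the PTBP2 WT intervals, while the densest bin of replicate 1 held 4.93% and lay at 1040 to 1060 kb. For Dlgap1 the bin was 140 to 160 kb, with 32.7%, 26.0% and 42.3% in those libraries and 18.5% in PTBP2 Rosa-PTBP1. At Grip1 it was 280 to 300 kb, with 22.4% in FLAG loxp/loxp, 21.1% in PTBP2 Rosa-PTBP1 and 15.4% in PTBP2 WT. In PTBP2 WT this bin led narrowly, with 73 intervals against 72 and 71 in the bins starting at 320 and 60 kb. In PTBP2 Rosa-PTBP1 it held 81, against 76 in the bin starting at 320 kb. Each densest bin was thus shared by all PTBP libraries that could be compared at that gene.

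The first part of the 2 longest genes was almost empty. In the first 600 kb of Dlg2, 31.2% of the window, the PTBP libraries and FLAG WT replicate 2 were listed at 0, and FLAG WT replicate 1 held 1 of its 501 intervals. The first 600 kb of Magi2, 41.1% of its window, held 5 intervals in FLAG loxp/loxp (0.325% of those at the gene), 22 in FLAG Rosa-PTBP1 (1.07%) and 0 in PTBP2 WT. FLAG WT replicate 1 had 35 there (15.7%). The background therefore shared the gap at Dlg2, whereas at Magi2 its scatter reached into a stretch that the PTBP libraries left nearly blank. The bound of 600 kb was chosen after the values were seen.

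**Figure D3:**
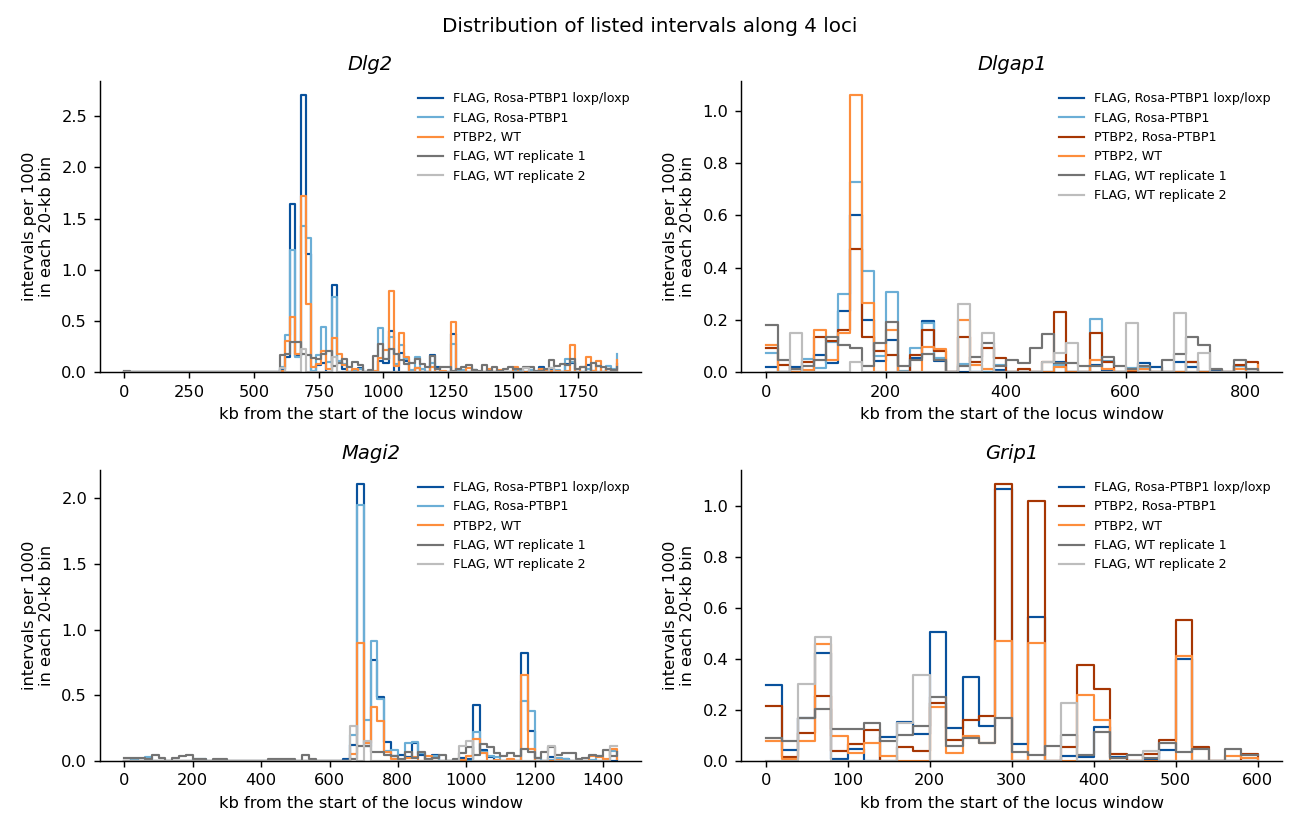
Distinct intervals per 1000 of the library in consecutive 20-kb bins, plotted by distance in kb from the start of each locus window; libraries listed at 0 in a locus are left out. The PTBP libraries peak in the same bins, at 680 to 700 kb in Dlg2 and Magi2, 140 to 160 kb in Dlgap1 and 280 to 300 kb in Grip1. For PTBP2 WT the Grip1 peak, at 0.470, is narrow in its lead over other bins. The highest bins of FLAG WT replicate 1 stand at 0.294, in Dlg2, while replicate 2 reaches 0.488 at 60 to 80 kb in Grip1.

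The richest region of each gene lay in or near these bins. At Dlg2 it spanned 1452 bases at chr7:98325078-98326529 and held 412 intervals in FLAG loxp/loxp, 292 in FLAG Rosa-PTBP1, 151 in PTBP2 WT, and 4 and 0 in FLAG WT replicates 1 and 2. A second Dlg2 region, chr7:98333664-98334226, held 111, 162 and 35 intervals in FLAG loxp/loxp, FLAG Rosa-PTBP1 and PTBP2 WT, against 1 and 0 in the FLAG WT libraries. Both regions were occupied by both proteins and nearly free of FLAG WT intervals.

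At Magi2 the richest region was chr5:19434397-19435054, with 147 intervals in FLAG loxp/loxp, 195 in FLAG Rosa-PTBP1, 51 in PTBP2 WT, and 1 and 0 in FLAG WT replicates 1 and 2. Its neighbour at chr5:19433740-19434365 held 75, 87 and 23 in the PTBP libraries and 2 and 0 in the background. Further downstream, chr5:19905547-19906078 held 123, 101 and 67, with none in the FLAG WT libraries. As shares, FLAG loxp/loxp, FLAG Rosa-PTBP1 and PTBP2 WT stood at 0.553, 0.555 and 0.328 per 1000 in the first region. They stood at 0.282, 0.247 and 0.148 in the second and at 0.462, 0.287 and 0.431 in the third. FLAG loxp/loxp also held more intervals than FLAG Rosa-PTBP1 in the third, although it was the smaller library.

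Dlgap1 had 3 short regions shared by every PTBP library. At chr17:70471750-70471976 there were 23 intervals in FLAG loxp/loxp, 38 in FLAG Rosa-PTBP1, 16 in PTBP2 Rosa-PTBP1 and 36 in PTBP2 WT. At chr17:70490217-70490423 there were 22, 43, 10 and 32, and at chr17:70488149-70488315 there were 24, 34, 5 and 22. The FLAG WT libraries held none in any of them. These were among 5 Dlgap1 regions with 5 or more intervals in all 4 PTBP libraries, and at the other genes 1 of those libraries could not be compared.

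Grip1 was richest at chr10:119225028-119225353, with 60 intervals in FLAG loxp/loxp, 68 in PTBP2 Rosa-PTBP1 and 67 in PTBP2 WT. The next regions were chr10:119412152-119412608, with 102, 31 and 58, and chr10:119192435-119192722, with 45, 41 and 31. None held a FLAG WT interval, and both proteins were found in each.

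**Figure D4:**
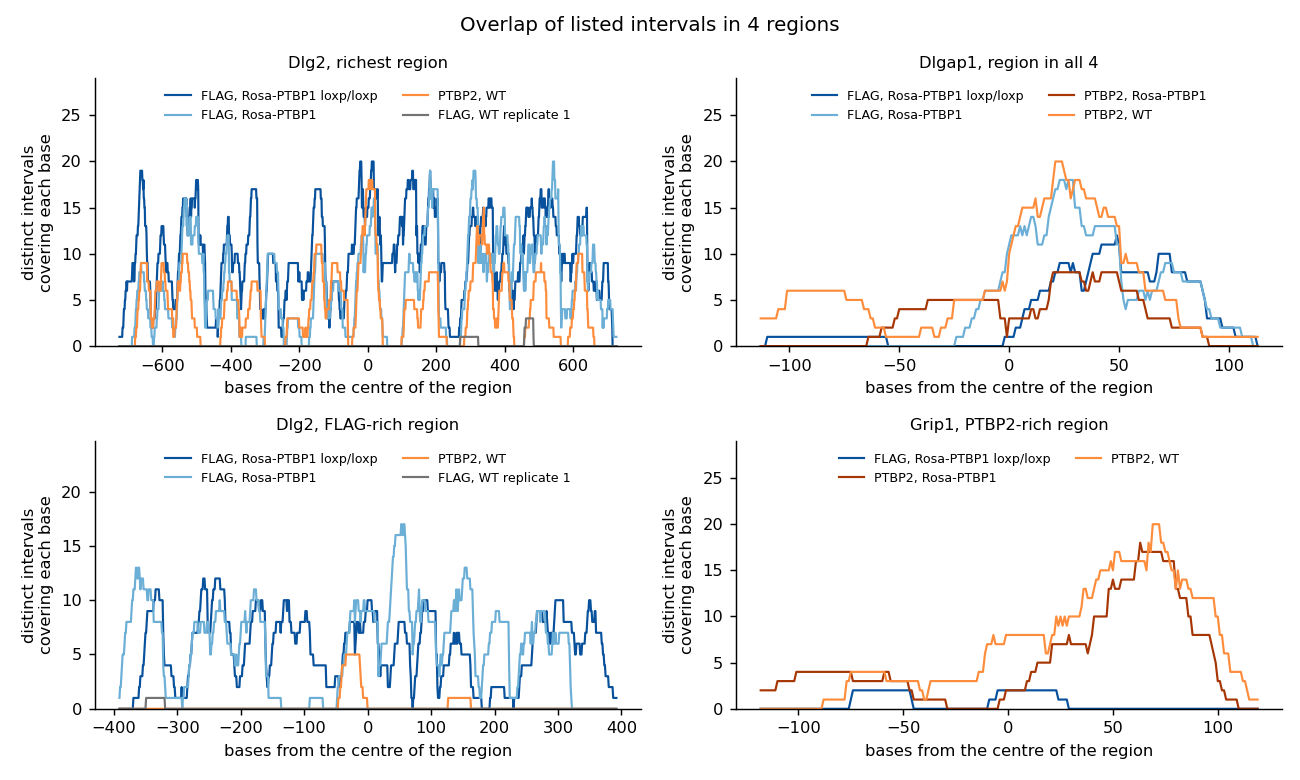
Number of distinct intervals that cover each base, by distance in bases from the centre of 4 regions: the richest Dlg2 region, a Dlgap1 region found in all 4 PTBP libraries, a Dlg2 region rich in FLAG-PTBP1 (134 intervals in FLAG Rosa-PTBP1, 6 in PTBP2 WT) and a Grip1 region rich in PTBP2 (40 intervals in PTBP2 WT, 4 in FLAG loxp/loxp). Libraries without intervals in a region are not drawn.

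The comparison of FLAG-PTBP1 with and without the PTBP2 loxp/loxp alleles addresses whether PTBP1 occupies these genes differently when PTBP2 can be removed. The shares of Dlg2 and Magi2 did not differ beyond counting error, with loxp/loxp folds of 1.02 (0.966 to 1.07) and 0.994 (0.930 to 1.06). Against the intervals within 5 Mb the log2 ratios were 0.51 at Dlg2 and -0.19 at Magi2. Dlgap1 fell to 1.84 per 1000 in FLAG loxp/loxp, against 2.80 in FLAG Rosa-PTBP1 (0.656-fold, 0.588 to 0.732). On all chromosomes 10 of 106 member regions were past 4-fold higher in FLAG loxp/loxp and 4 lower, where 4.60% and 5.39% of all regions were, but 9 of the 10 lay at Grip1 on the near-empty chromosome. On chromosomes filled in both libraries, 1 of 97 member regions was past 4-fold higher in FLAG loxp/loxp and 4 were lower, where 2.34% of all regions were higher and 5.52% lower. The median log2 ratio was -0.03 over the members and 0.03 over all, so the members' counts lay near the background of such calls.

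The region called higher was at Dlg2, chr7:98285561-98285688, with 22 intervals in FLAG loxp/loxp and 6 in FLAG Rosa-PTBP1 (4.85-fold, 1.91 to 14.6). Of those called lower, 2 Dlg2 regions had the lowest ratios. At chr7:98250000-98250129 FLAG loxp/loxp was listed at 0 and FLAG Rosa-PTBP1 held 20, and at chr7:98397567-98397668 FLAG loxp/loxp was listed at 0, FLAG Rosa-PTBP1 held 20 and PTBP2 WT 6. The libraries shared 52.4% (48.0 to 56.8) of the loxp/loxp sites and 40.7% (37.0 to 44.5) of the FLAG Rosa-PTBP1 sites at Dlg4, Dlg2, Dlgap1 and Magi2. Of the regions with 5 or more intervals, 149 reached that number in both. Across regions with 20 or more intervals in both together, Spearman's rho was 0.35 at Dlg2 (60 regions), 0.29 at Dlgap1 (11) and 0.84 at Magi2 (26), as a description over regions that share libraries and depth. In 37 regions with 20 or more intervals in each library, the bases of highest coverage lay a median of 20 bases apart. The distance ranged from 0 to 530 bases, the last in the richest Dlg2 region, and was within 10 bases in 14 of them.

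The comparison of PTBP2 with and without Rosa-PTBP1 addresses whether PTBP2 stays on these RNAs when PTBP1 is also made. It could be made at Dlgap1 and Grip1. The Dlgap1 share was 2.54 per 1000 in PTBP2 Rosa-PTBP1 and 2.51 in PTBP2 WT (1.01-fold, 0.846 to 1.21). As a share of chromosome 17 it was lower in PTBP2 Rosa-PTBP1 (log2 -0.32), and more so against the intervals within 5 Mb (log2 -1.60). Grip1 stood at 5.15 per 1000 in PTBP2 Rosa-PTBP1 and 3.05 in PTBP2 WT (1.69-fold, 1.47 to 1.94). It was higher within each sequencing run as well, at 4.93 against 3.09 per 1000 in one and 5.48 against 3.03 in the other. The near-empty chromosomes of PTBP2 Rosa-PTBP1 raise its share elsewhere: as a percentage of chromosome 10, Grip1 held 6.01% in PTBP2 Rosa-PTBP1 and 4.74% in PTBP2 WT, and against the intervals within 5 Mb the direction turned (log2 -0.25). The values at both genes are thus not stable to the scale.

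On all chromosomes, 0 of 27 member regions were past 4-fold higher in PTBP2 Rosa-PTBP1 and 16 lower, where 1.86% and 25.4% of all were, and all 16 lay at Dlg2 or Magi2 on near-empty chromosomes. Of the 11 member regions on filled chromosomes with 20 or more intervals in the 2 PTBP2 libraries together, 0 were past 4-fold in either direction, where 2.27% of all regions were higher and 8.99% lower; these are sizes without a test. A Dlgap1 region below that minimum, chr17:70815664-70815874, held 16 intervals in PTBP2 Rosa-PTBP1 and 2 in PTBP2 WT (16.7-fold, 3.93 to 150). The 16 had 11 distinct start positions. This region was picked because its PTBP2 Rosa-PTBP1 share was high against FLAG Rosa-PTBP1, so no change in PTBP2 is read from this fold. It was the exception among the Dlgap1 regions described here, with 3 intervals in FLAG loxp/loxp and 6 in FLAG Rosa-PTBP1. At the 3 richest Grip1 regions PTBP2 Rosa-PTBP1 ranged from 1.12-fold (0.698 to 1.76) to 2.76-fold (1.69 to 4.56) of PTBP2 WT. Site overlap at Dlg4, Dlgap1 and Grip1 was 22.1% (15.6 to 29.9) of the PTBP2 Rosa-PTBP1 sites and 21.7% (14.9 to 29.8) of the PTBP2 WT sites. In the 5 regions with 20 or more intervals in both, the bases of highest coverage lay a median of 7 bases apart, ranging from 0 to 106.

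PTBP1 and PTBP2 were then set side by side within Rosa-PTBP1; Emx1-cre cortex, where both can be present, and which left Dlgap1 as the gene with data for both. Its share was 2.80 per 1000 for FLAG-PTBP1 and 2.54 for PTBP2 (1.10-fold, 0.943 to 1.30). The ratio was larger as a share of chromosome 17 (log2 0.40) and against the intervals within 5 Mb (log2 2.17), in place of 0.14, so the closeness of the shares depends on the scale. On all chromosomes 56 of 65 member regions were past 4-fold higher for FLAG-PTBP1 and 6 for PTBP2, where 54.7% and 7.60% of all were, and 56 of these 62 lay at genes listed at 0 in 1 of the libraries. Of 9 Dlgap1 regions tested on filled chromosomes, 5 were past 4-fold higher for FLAG-PTBP1 and 1 for PTBP2, where 39.2% of all regions were higher and 8.73% lower. In each of the 5, FLAG Rosa-PTBP1 alone reached the minimum, with 21 to 31 intervals, and PTBP2 Rosa-PTBP1, the smaller library, was listed at 0, so no difference between the proteins is read from this count. The region higher for PTBP2 was chr17:70815664-70815874, with 6 intervals for FLAG-PTBP1 and 16 for PTBP2 (0.0794-fold, 0.0254 to 0.214). Of those higher for FLAG-PTBP1, chr17:70571509-70571679 held 30 and chr17:70458783-70458984 held 31. FLAG loxp/loxp held 13 and 6 there, PTBP2 WT 0 and 2, and the FLAG WT libraries none.

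FLAG-PTBP1 in loxp/loxp cortex was last compared with PTBP2 in WT cortex, the pair in which FLAG-PTBP1 was made where PTBP2 can be removed and PTBP2 was studied without the transgene, and in which all 4 abundant genes had data. The FLAG-PTBP1 share was higher at Magi2 (5.79 against 3.18 per 1000, 1.82-fold, 1.64 to 2.02), Grip1 (4.76 against 3.05, 1.56-fold, 1.40 to 1.74) and Dlg2 (9.07 against 7.62, 1.19-fold, 1.11 to 1.28). It was lower at Dlgap1 (1.84 against 2.51, 0.733-fold, 0.640 to 0.839). Counted in stacked sites the Dlg2 direction turned (log2 -0.27), and counted in merged sites that of Dlgap1 did (log2 0.15), so Magi2 and Grip1 were the genes whose direction held on every scale tried. Of 76 member regions, 16 were past 4-fold higher for FLAG-PTBP1 and 4 for PTBP2, where 14.5% of all regions were higher and 6.02% lower. By gene, those higher and lower were 8 and 2 of 37 at Dlg2, 4 and 0 of 18 at Magi2, 4 and 2 of 14 at Grip1, and 0 and 0 of 7 at Dlgap1. The median log2 ratio was 0.48 over the members and 0.04 over all regions. FLAG loxp/loxp was the larger library, and a region could reach the minimum through it alone. No difference between the proteins is therefore read from these region counts or medians.

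Some regions, picked for a high share or an extreme ratio, held intervals mainly from libraries of 1 of the proteins. At Dlg2, chr7:98284637-98285420 held 133 intervals in FLAG loxp/loxp and 134 in FLAG Rosa-PTBP1, but 6 in PTBP2 WT, a 13.0-fold (5.80 to 35.9) higher share in FLAG loxp/loxp than in PTBP2 WT. Another Dlg2 region, chr7:98328226-98328625, held 38 and 16 in the FLAG-PTBP1 libraries and was listed at 0 in PTBP2 WT. The Magi2 region chr5:19492972-19493325 had 42 and 25 FLAG-PTBP1 intervals and likewise none of PTBP2 WT. Of the 4 regions higher for PTBP2, the 2 at Grip1 had the lowest ratios. The region chr10:119282541-119282778 held 4 intervals in FLAG loxp/loxp against 40 in PTBP2 WT (0.0584-fold, 0.0152 to 0.162), and 26 in PTBP2 Rosa-PTBP1. At chr10:118973993-118974218 FLAG loxp/loxp was listed at 0, PTBP2 Rosa-PTBP1 held 13 and PTBP2 WT 29. Both PTBP2-rich Grip1 regions were therefore found by the PTBP2 antibody in both genotypes, and none of these 5 regions held more than 1 FLAG WT interval.

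Over all member regions, 397 had 5 or more intervals in a FLAG-PTBP1 library and none in either PTBP2 library, and 46 had 5 or more in a PTBP2 library and none in either FLAG-PTBP1 library. These counts follow depth and the near-empty chromosomes as well. The FLAG-PTBP1 libraries hold more intervals, and PTBP2 Rosa-PTBP1 is blank at Dlg2 and Magi2. The part of depth in the counts was not tested. The same counts over all regions of the genome are not given here, so they are not read as a trait of these genes. Regions with 5 or more intervals in FLAG loxp/loxp, FLAG Rosa-PTBP1 and PTBP2 WT together numbered 66, of which 43 lay at Dlg2, 14 at Magi2 and 9 at Dlgap1. Of the PTBP2 WT sites, 47.9% (43.0 to 52.9) overlapped a FLAG loxp/loxp site and 57.6% (52.2 to 62.9) a FLAG Rosa-PTBP1 site. From the larger libraries the shares were 27.8% (24.5 to 31.3) of the FLAG loxp/loxp sites and 28.3% (25.0 to 31.9) of the FLAG Rosa-PTBP1 sites. Site overlap over whole libraries is not given here, so none of the site overlaps above is read as particular to these genes.

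**Figure D5:**
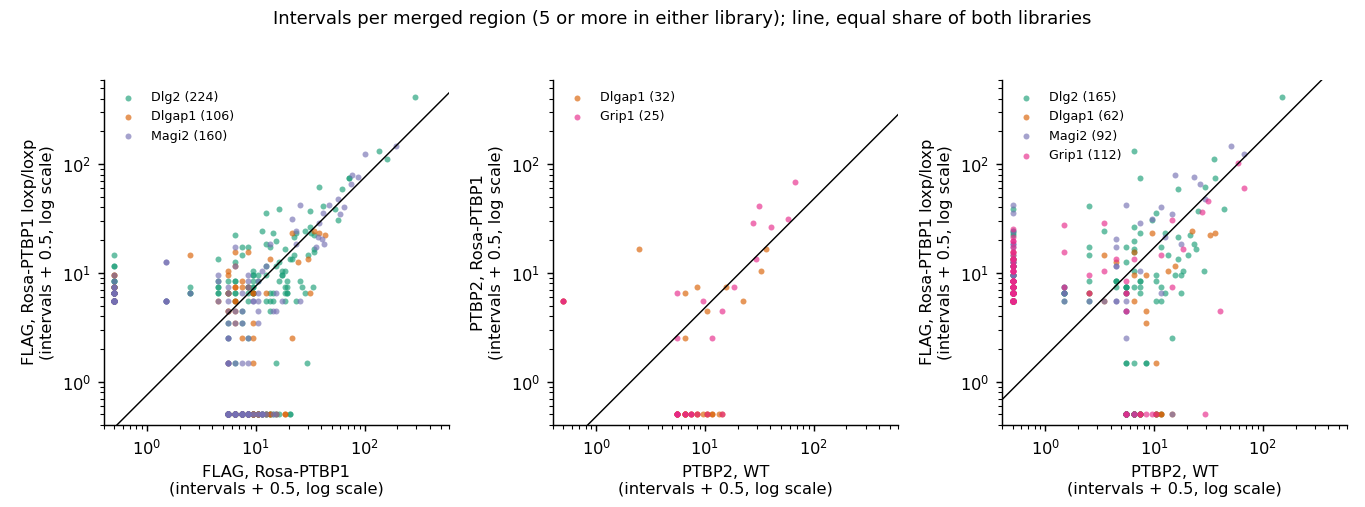
Each point is a merged region with 5 or more intervals in either library of a panel, plotted by its intervals plus 0.5 on log axes; numbers in the legends are regions per gene, genes on near-empty chromosomes are left out, and the line marks equal shares of both libraries. For FLAG loxp/loxp against FLAG Rosa-PTBP1 some rich regions lie on the line, such as the richest Magi2 region (147 and 195 intervals). The richest Dlg2 region (412 and 292) lies above it. Against PTBP2 WT the Dlg2 region with 133 FLAG-PTBP1 and 6 PTBP2 intervals and the Grip1 region with 4 and 40 lie far from the line.

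A limit common to these counts lies in how the intervals were listed. Whole libraries held 1.06 to 1.62 lines per distinct interval in the PTBP libraries, and 4.26 and 1.49 in FLAG WT replicates 1 and 2, and the counts given here take each interval once. After that step the number of distinct start positions at the 5 genes was 97.7% of the number of intervals in FLAG loxp/loxp, 98.8% in FLAG Rosa-PTBP1, 87.6% in PTBP2 Rosa-PTBP1 and 93.6% in PTBP2 WT. Distinct starts filled 28.4% of the bases of the richest Dlg2 region in FLAG loxp/loxp and 20.1% in FLAG Rosa-PTBP1.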

How the data were processed

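FLAG or PTBP2 was immunoprecipitated from nuclear fractions of neocortex irradiated at 400 mJ/cm2, RNA was trimmed with micrococcal nuclease, and the membrane from 80 to 110 kDa was eluted and sequenced, per the labels' protocols. Reads were aligned with Bowtie to mm9, per the submitters' processing notes (version not given in the sources used here). Per the file headers, the authors deposited read intervals of clusters significant at a false discovery rate; neither its level nor the caller is given there. The lists hold positions without scores or gene names.

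Lines were collapsed to distinct intervals, merged with pandas 2.3.3, and counted as shares of each library. Exact Clopper-Pearson and conditional binomial intervals at 95% came from scipy 1.17.1 and cover counting error only; intervals stacked on 1 site depend on each other, so these are too narrow. The counting was tested on simulated regions. A chromosome was nearly empty where its share was under 0.5 times the median of the other libraries. The members and lists were chosen with earlier results of these data known. Named regions were the 3 with the highest mean share over the 4 PTBP libraries at each gene, and the 2 highest and 2 lowest past 4-fold in each comparison between PTBP libraries; other regions are given as chosen after their values were seen, as were the 3 regions with background intervals. Related scaffold genes were not analysed here, since no mm9 annotation was used here, and no interval was placed in an exon or intron. Alternatives changed the counted unit, scale, minimum, fold, merging, sequencing run and FLAG WT replicate; the restriction to filled chromosomes was added after the data were seen.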

Additional observations from a re-analysis of the deposited data

How the results depend on the processing

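Ratios here are log2 values over the 5 genes together, unless a gene is named; 1.00, 0.29, -1.09 and 1.19 below contain genes listed at 0 on near-empty chromosomes, and the values on filled chromosomes leave these out. FLAG Rosa-PTBP1 against FLAG WT was 1.00 from shares of whole libraries, 0.90 from merged sites, 0.74 from stacked sites, 1.48 from shares of the same chromosomes, 2.39 from shares of the 5-Mb flanks, 1.97 within run WA047 and 1.38 for genes on filled chromosomes. Leaving out a FLAG WT replicate gave 0.42 to 1.97, the low value without replicate 2. PTBP2 WT against FLAG WT was 0.90, with 0.80 from merged sites, 1.06 from the same chromosomes, 1.30 from the flanks, 0.27 and 0.37 within runs XA041 and XB028, and 0.32 to 1.88 without a replicate. Its sign turned at Dlgap1 within XB028 (-0.068) and at Grip1 from stacked sites (-0.15) and flanks (-0.50). The stacked reference at Grip1 was only 1 and 3 sites in FLAG WT replicates 1 and 2.

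FLAG loxp/loxp against FLAG Rosa-PTBP1 was 0.29 and reversed from shares of the same chromosomes (-0.089), of the flanks (-0.62) and on filled chromosomes (-0.071). PTBP2 Rosa-PTBP1 against PTBP2 WT was -1.09, with -1.27 from merged sites, -1.28 from stacked sites and -1.60 from the flanks; it reversed on filled chromosomes (0.46), and at Grip1 alone from the flanks (-0.25). FLAG Rosa-PTBP1 against PTBP2 Rosa-PTBP1 was 1.19, with 1.37 from merged sites, 1.41 from the same chromosomes, 2.69 from the flanks and 0.15 on filled chromosomes. FLAG loxp/loxp against PTBP2 WT was 0.39, with 0.21 from stacked sites and 0.47 from the flanks; Dlg2 reversed from stacked sites (-0.27) and Dlgap1 from merged sites (0.15).

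Member regions past 4-fold numbered 24, 14, 16, 62 and 20 in PTBP2 WT against FLAG WT, FLAG loxp/loxp against FLAG Rosa-PTBP1, PTBP2 Rosa-PTBP1 against PTBP2 WT, FLAG Rosa-PTBP1 against PTBP2 Rosa-PTBP1 and FLAG loxp/loxp against PTBP2 WT. With a minimum of 10 intervals they numbered 61, 80, 53, 145 and 70 in the same order. At 2-fold there were 38 for FLAG loxp/loxp against FLAG Rosa-PTBP1 and 39 against PTBP2 WT. From shares of the same chromosome there were 6 for FLAG loxp/loxp against FLAG Rosa-PTBP1 and 21 for FLAG Rosa-PTBP1 against PTBP2 Rosa-PTBP1, and on filled chromosomes 5 and 6, with 0 for PTBP2 Rosa-PTBP1 against PTBP2 WT. The restriction to filled chromosomes was chosen after seeing the data; the other causes were not tested. Of the remaining values for single genes and overlaps, 70 moved by more than counting error: 60 ratios with the same sign, 7 overlaps, and 3 ratios of which the sign changed. These 3, each within counting error of equal shares, were Dlgap1 in PTBP2 Rosa-PTBP1 against PTBP2 WT (0.018, with -0.32 from the same chromosomes and -1.60 from the flanks) and Dlg2 in FLAG loxp/loxp against FLAG Rosa-PTBP1 (0.027, with -0.12 from merged sites). The other 70 stayed within counting error. No paired analysis was possible because FLAG WT alone has numbered replicates and its comparisons have 1 library on the other side.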
